A study of Mus musculus with 14 samples.

Results

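A set of 10 genes named for newborn granule neurons, the young neurons that the dentate gyrus of the hippocampus goes on making after birth, were followed across the hippocampus of 14 mice. They were Neurod1, Sox11, Sox4, Igfbpl1, Draxin, Dcx, Tubb3, Dpysl3, Stmn1 and Calb2, taken by symbol, and they are 10 of the 19127 genes that had a value in any library. Per the labels, the C57BL6 mice were either wild type (KMT2D+/+) or carried 1 KMT2D allele with a bGeo insertion (KMT2D+/bGeo, called mutants here). KMT2D is a histone methyltransferase that adds methyl groups to lysine 4 of histone H3. TAK-418 blocks LSD1, an enzyme that removes methyl groups from histones, and was given by gavage at 1 mg/kg/day for 2 weeks from 2 weeks of age. The other mice were given methylcellulose, the vehicle, alone. Their age is given as 30 days. On vehicle there were 3 libraries of each genotype, and on TAK-418 there were 5 of wild types and 3 of mutants, all from hippocampus, and no group without gavage is among them.

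In the dentate gyrus, dividing progenitors give rise to neuroblasts that leave the cell cycle, extend an axon and dendrites and become granule cells. Basic helix-loop-helix and SOX factors such as Neurod1, Sox4 and Sox11 act early in this step. Doublecortin (Dcx), stathmin (Stmn1), the collapsin response mediator Dpysl3 and the neuronal tubulin Tubb3 belong to the cytoskeleton of growing neurites, and calretinin (Calb2) appears for a short time in the immature granule cell. Several of the 10 are not restricted to that cell: Tubb3 and Stmn1 are made by neurons in general, and Calb2 also marks interneurons and mossy cells. In bulk tissue, fewer cells of a type and less RNA per cell cannot be told apart.

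Promoter sequences are shown for Sox11, Sox4 and Draxin because each held an E-box of the letters CAGCTG, the kind of site that basic helix-loop-helix factors bind. The 250 bases before the RefSeq start site (GRCm38.p6) are given 5′ to 3′ on the gene's strand, with matches on either strand in capitals. The motifs searched were that E-box, a second E-box with the letters CAGATG, and a SOX-type motif with the letters ACAAAG.
Sox11 promoter, chr12:27342719-27342968, minus strand: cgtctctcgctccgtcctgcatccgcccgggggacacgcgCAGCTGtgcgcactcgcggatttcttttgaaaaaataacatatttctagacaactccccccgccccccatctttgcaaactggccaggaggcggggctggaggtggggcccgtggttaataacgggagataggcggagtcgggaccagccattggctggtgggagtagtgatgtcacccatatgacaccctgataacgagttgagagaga
Sox4 promoter, chr13:28953700-28953949, minus strand: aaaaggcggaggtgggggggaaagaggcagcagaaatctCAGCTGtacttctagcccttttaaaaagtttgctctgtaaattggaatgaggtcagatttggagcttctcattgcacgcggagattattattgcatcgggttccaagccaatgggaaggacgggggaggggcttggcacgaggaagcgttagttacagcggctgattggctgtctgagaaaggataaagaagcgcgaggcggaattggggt
Draxin promoter, chr4:148130699-148130948, minus strand: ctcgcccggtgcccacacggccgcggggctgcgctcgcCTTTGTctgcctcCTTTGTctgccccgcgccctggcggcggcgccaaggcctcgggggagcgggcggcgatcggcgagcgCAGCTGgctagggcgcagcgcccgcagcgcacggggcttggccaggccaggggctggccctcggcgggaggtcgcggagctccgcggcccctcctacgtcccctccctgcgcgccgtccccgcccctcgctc

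The first base of the E-box lay at -210 from the RefSeq start site in Sox11, at -211 in Sox4 and at -132 in Draxin, and Draxin held ACAAAG on the opposite strand at -212 and -199. In several libraries the assembled Sox4 transcript ran past its E-box, for example to chr13:28954101 in mutant TAK-418 replicate 2. The Sox11 transcript of wild-type TAK-418 replicate 4 also did, to chr12:27344049. Neither of these transcripts had an assigned strand, and start sites were not measured. Of the 10 genes, 6 had an entry in the RefSeq promoter table (Neurod1, Sox11, Sox4, Draxin, Tubb3 and Dcx, the last with 2 start sites). In the full window of 300 bases, which runs 50 bases past the start, Neurod1 and Tubb3 held none of the motifs, and 1 of the Dcx windows held 1 ACAAAG at -8. Among all 32851 promoter windows of that length, 16.3% held CAGCTG, 17.2% held CAGATG and 18.7% held ACAAAG. The GC share was 78% in Draxin (39 CpG), 67.3% in Tubb3 (26 CpG), 66.7% in Neurod1 (26 CpG), 58.7% in Sox11 (21 CpG), 52.0% in Sox4 (12 CpG) and 43.0% and 44.7% in the Dcx windows (3 CpG each). The median over all windows was 52.7% GC with 7 CpG, so Dcx had few CpG for a promoter and Draxin many. These matches are letters in a window, and binding was not measured.

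Abundance below is a scaled value per length and per library, close to FPKM (fragments per kilobase of transcript, corrected for depth), from the authors' assembled transcripts. A gene is listed at 0 where no transcript was assembled, which is not a measured absence. Relative depth, the library total in fragments (M) that the steps between low abundance values imply, ran from 35.1 to 60.0 M in 13 libraries and was 167.6 M in wild-type TAK-418 replicate 1. At these totals 89.4% to 97.7% of low values were whole fragments within 0.1. Kmt2d, the targeted gene, ranged over 13.8 to 14.2 in wild types on vehicle and 10.6 to 14.4 in mutants on vehicle, and over 12.51 to 17.99 and 9.35 to 14.6 in the respective treated groups, so the genotypes overlapped. An insertion need not lower reads over the rest of the gene. The choroid plexus gene Ttr exceeded 1000 in 2 libraries, replicate 1 of the mutants on vehicle (4904) and replicate 3 of the wild types on vehicle (6371). It was 884 in mutant vehicle replicate 3 and 590 in mutant TAK-418 replicate 1, and lay between 6.49 and 36.3 in the other 10. Markers of the CA fields, Wfs1 and Fibcd1, and the granule cell gene Prox1 had values in every group. Sex was inferred from Xist and Y-linked genes, and the groups were not balanced for it. Females were replicates 1 and 3 of the wild types on vehicle and replicate 1 of the mutants on vehicle. On TAK-418 they were replicates 2 and 5 of the wild types and replicate 2 of the mutants.

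Stmn1 was the most abundant of the 10, with a median of 230.3 over the 14 libraries, and 98.5% of all genes had a lower mean. Tubb3 followed at 171.9 and Calb2 at 38.6. Neurod1 (24.2) and Dpysl3 (19.6) overlapped in range, as did Igfbpl1 (10.5), Sox4 (9.13) and Dcx (5.90) along that order. Draxin (1.44) was low, and Sox11 was listed above 0 in 3 libraries only. In all, 8 of the genes had a value in all 14 libraries, and all 10 passed the filter of a value in at least 3.

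**Figure D1:**
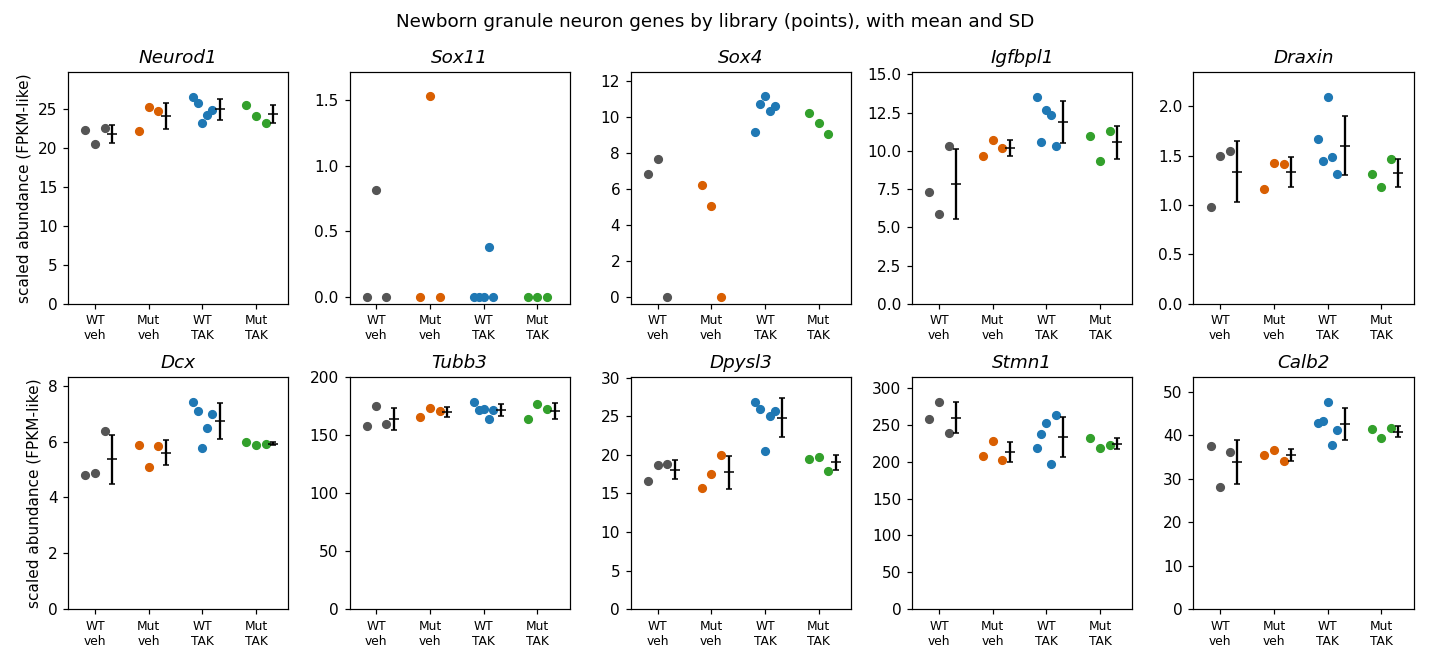
Scaled abundance (FPKM-like, linear axis) of the 10 genes in each library (points), with the group mean and SD as bars for the 8 genes valued in all libraries. Dpysl3 reaches 25.02 to 26.88 in 4 of the 5 wild-type TAK-418 libraries and stays at or under 20.54 in all others, and Sox4 and Sox11 show libraries listed at 0.

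The drug was first compared with vehicle in wild types, where KMT2D is intact. None of the 10 genes passed the adjusted threshold of 0.05 in limma's test, and the smallest adjusted p was 0.199. Of the 16764 genes tested, 0% were called. At an unadjusted p under 0.05, 5 of the 10 were higher in treated wild types (Neurod1, Igfbpl1, Dcx, Dpysl3 and Calb2) and 0 lower, where 5.21% of all genes were higher and 3.29% lower. The median log2 difference was 0.24 over the members and -0.003 over all genes. In 3 of the 8 fully valued genes (Neurod1, Dpysl3 and Calb2) every treated wild type lay above every vehicle wild type, against 4.01% of all genes. That share, like the later shares without overlap, was taken over all 16764 tested genes, including genes listed at 0 in some libraries.

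Neurod1, the helix-loop-helix factor that drives neuronal differentiation (chr2:79452521-79456751), had values of 22.3, 20.5 and 22.5 in wild-type vehicle libraries and of 26.6, 25.8, 23.2, 24.3 and 24.9 in wild-type TAK-418 libraries. The treated wild types were all higher, and the difference was 0.19 ± 0.058 on the log2 scale (SE, unadjusted p = 0.00713, adjusted p = 0.407 in limma). Mutants measured 22.2, 25.3 and 24.8 under vehicle and 25.6, 24.1 and 23.3 under TAK-418, which overlapped each other. Transcripts of Neurod1 share annotated exon bases with Cerkl on the same strand and with a noncoding gene on the other, so reads of these genes could be mixed.

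Igfbpl1, a secreted protein related to the insulin-like growth factor binding proteins (chr4:45809468-45826923), had the largest fitted difference of the 8 in treated wild types. Vehicle wild types measured 7.33, 5.88 and 10.3, and treated wild types 13.5, 10.6, 12.6, 12.4 and 10.3. The highest vehicle library lay just above the lowest treated one, so the groups overlapped. The difference was 0.57 ± 0.14 (SE, unadjusted p = 0.00173, adjusted p = 0.269 in limma). Mutants measured 9.64, 10.7 and 10.2 under vehicle and 10.99, 9.334 and 11.33 under TAK-418. Wild-type vehicle replicate 2, with the lowest value, also had an assembled transcript of 2535 bases, against 897 to 1118 bases in the other 13 libraries. With abundance multiplied by length in place of abundance the difference was 0.19, and without that library it was 0.41.

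Dcx, the microtubule-binding protein by which newborn neurons are usually recognised (chrX:143855842-143933311), measured 4.82, 4.88 and 6.39 in vehicle wild types and 7.42, 7.11, 5.77, 6.48 and 6.99 in treated wild types. Of the 5 treated libraries, 4 exceeded all vehicle ones. The difference was 0.30 ± 0.096 (SE, unadjusted p = 0.00965, adjusted p = 0.429 in limma). Mutant values were 5.89, 5.09 and 5.84 under vehicle and 5.98, 5.88 and 5.92 under TAK-418, a spread of only 0.0517 (SD, n = 3) around 5.93 in the treated mutants.

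Dcx transcripts were assembled with up to 2 forms of the end of exon 5, and they also differed elsewhere (wild-type TAK-418 replicate 5 had 4 transcripts). Exon 5 is shown because its forms differ between libraries. It lies at chrX:143875755-143875892 on the minus strand (GRCm38, GENCODE M21). The 15 bases in capitals are kept by the longer form and skipped by the shorter one, which uses the earlier splice donor.
Dcx exon 5, longer form: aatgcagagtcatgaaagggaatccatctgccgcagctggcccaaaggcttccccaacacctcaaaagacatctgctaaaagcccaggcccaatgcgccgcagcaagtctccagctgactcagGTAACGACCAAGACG
Of 6 annotated Dcx transcripts, 4 carry the longer end and 1 the shorter. The longer form was assembled in 13 libraries. Mutant vehicle replicate 1 had neither, because Dcx was assembled there in 2 separate pieces. The shorter form was listed in 7 libraries: in all 5 treated wild types, at 10.2%, 9.9%, 8.2%, 9.8% and 10.1% of the abundance of the 2 forms, in wild-type vehicle replicate 1 at 16.8% and in mutant TAK-418 replicate 3 at 6.6%. It was not assembled in the other 2 vehicle wild types, the other 2 vehicle mutants or the other 2 treated mutants. Relative depth was 40.8 to 167.6 M in the 7 libraries with the shorter form and 35.1 to 60.0 M in the 7 without, and the part of depth in which forms were listed was not tested.

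Calb2, the calcium-binding protein calretinin (chr8:110137502-110168210), measured 37.5, 28.1 and 36.2 in vehicle wild types and 43.0, 43.4, 47.7, 37.8 and 41.4 in treated wild types. All treated wild types were above all vehicle ones, by a margin of less than 1 between the nearest libraries. The difference was 0.33 ± 0.090 (SE, unadjusted p = 0.00324, adjusted p = 0.322 in limma), and 0.20 without wild-type vehicle replicate 2, the lowest of the vehicle libraries. In mutants the values were 35.6, 36.7 and 34.1 under vehicle and 41.6, 39.4 and 41.6 under TAK-418, which did not overlap (0.20 ± 0.10, SE, unadjusted p = 0.0695, adjusted p = 1 in limma). Calb2 was the one gene of the 8 without overlap in that comparison, where 4.61% of all genes were higher without overlap.

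Dpysl3, a collapsin response mediator that acts on actin and microtubules in growth cones, measured 16.6, 18.7 and 18.9 in vehicle wild types and 26.88, 26.02, 20.54, 25.02 and 25.77 in treated wild types. It had the smallest p of the 10 in this comparison, with a difference of 0.44 ± 0.093 (SE, unadjusted p = 0.000537, adjusted p = 0.199 in limma). Mutants measured 15.7, 17.5 and 20.0 under vehicle and 19.4, 19.8 and 17.9 under TAK-418. The assembled transcript differed in the same libraries. In wild-type TAK-418 replicates 1, 2, 4 and 5 its long last exon was whole and the transcript had 5026 to 5091 bases, while in the other 10 libraries that exon was broken and the transcript had 2172 to 2223 bases. Abundance was 25.02 to 26.88 with the exon whole and 15.7 to 20.5 with it broken, and the 1 treated wild type with a broken exon had the 20.5. Where the far part of the broken exon was assembled by itself, it was listed at 0.649 to 1.04. Relative depth was 52.7 to 167.6 M in the 4 libraries and 35.1 to 60.0 M in the 10, and the part of the assembly in the difference was not tested. Abundance multiplied by length gave a difference of 1.37.

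**Figure D2:**
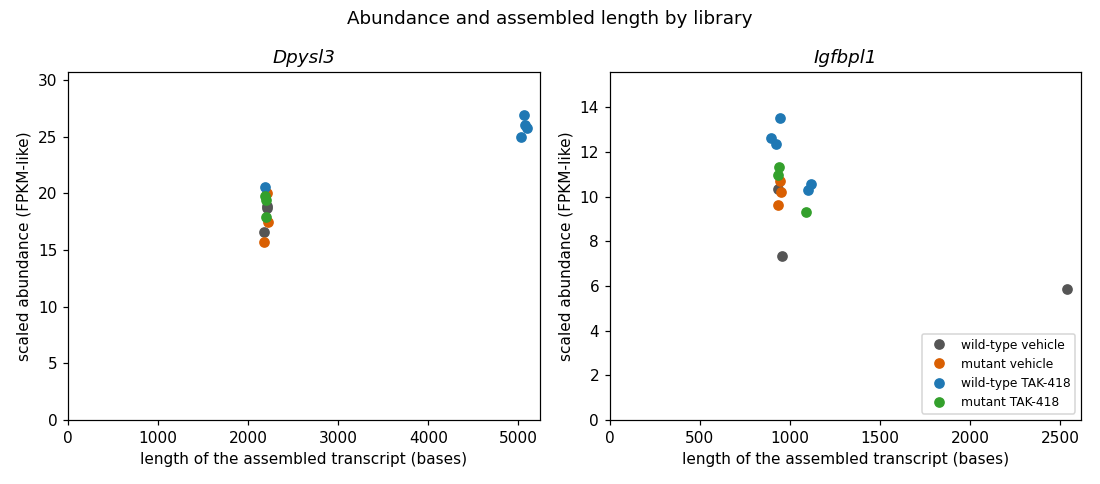
Scaled abundance (FPKM-like) against the length of the assembled transcript (bases) for Dpysl3 and Igfbpl1, 1 point per library, coloured by group. For Dpysl3 the 4 libraries with transcripts of 5026 to 5091 bases are all treated wild types and have the highest values, and for Igfbpl1 the single long transcript, of 2535 bases, belongs to the lowest library.

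Stmn1, a microtubule-destabilising phosphoprotein (chr4:134468320-134473843), and Tubb3, a beta-tubulin of neurons (chr8:123411424-123422015), did not pass an unadjusted p of 0.05 for the drug in either genotype. Stmn1 measured 258.1, 281.2 and 239.1 in vehicle wild types and 218.5, 237.6, 253.3, 196.5 and 262.9 in treated wild types (-0.15 ± 0.089, SE). It was the one gene of the 8 with a negative fitted difference. Tubb3 measured 158.1, 175.2 and 159.5 in vehicle wild types and 178.6, 171.8, 172.5, 163.7 and 172.0 in treated wild types (0.065 ± 0.044, SE). In mutants Tubb3 went from 169.9 ± 3.93 (SD, n = 3) under vehicle to 171.0 ± 6.75 (SD, n = 3) under TAK-418.

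Draxin, a secreted guidance protein that repels growing axons (chr4:148098437-148130698), measured 0.981, 1.49 and 1.54 in vehicle wild types and 1.666, 1.447, 2.095, 1.481 and 1.318 in treated wild types (0.17 ± 0.12, SE). The difference was 0.043 without wild-type vehicle replicate 1 and 1.13 with abundance multiplied by length. The ranges overlapped. It was assembled in 2 pieces in 8 libraries and in 1 piece in 6, and its values are sums over pieces.

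The SOX factors were not assembled in every library, so they are given by library without a fold or test, although both were among the 10 counted above. Sox4 (chr13:28948919-28953713) measured 6.86, 7.66 and 0 in wild types on vehicle and 6.25, 5.07 and 0 in mutants on vehicle. Under TAK-418 it measured 9.16, 10.7, 11.2, 10.4 and 10.7 in wild types and 10.3, 9.71 and 9.09 in mutants. The values in wild-type TAK-418 replicates 1 and 4 came from transcripts of 2 exons that shared no annotated intron with Sox4. They were counted only under the assignment rule widened after the member values were seen. Without that rule these treated libraries would be listed at 0, as 2 vehicle libraries were. The values are therefore not read as a separation of treated from vehicle libraries, and no share of all genes was counted. The authors' deposited tables, which pool the libraries of a group, list Sox4 at 9.103 (wild types on vehicle), 9.619 (mutants on vehicle), 9.79 (treated wild types) and 10.11 (treated mutants). Their range is narrower, and the vehicle groups in them are not far below the treated ones. The locus in those tables runs over chr13:28943048-29041707, and a noncoding gene on the other strand overlaps the Sox4 exon. Sox11 (chr12:27334264-27342574) was listed at 0.816 in wild-type vehicle replicate 2, 1.53 in mutant vehicle replicate 2, 0.383 in wild-type TAK-418 replicate 4 and at 0 in the other 11 libraries. The authors' deposited tables list Sox11 at 4.72, 4.41, 5.52 and 5.17 in the same order of groups.

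**Figure D3:**
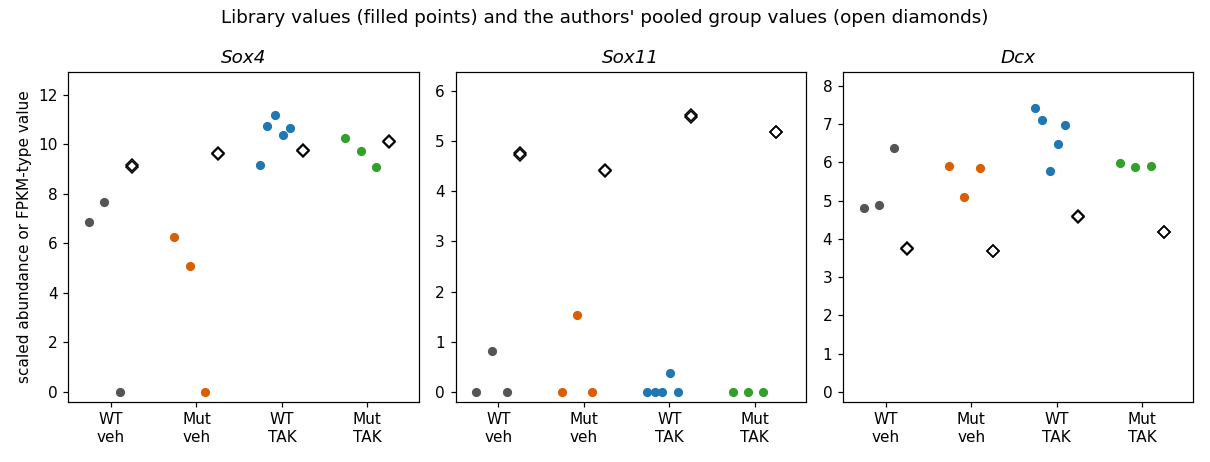
Scaled abundance in each library (filled points) and the FPKM-type group values of the authors' deposited tables (open diamonds, 1 per table in which the group appears) for Sox4, Sox11 and Dcx. The pooled Sox4 values (9.103 to 10.14) lie above all 6 vehicle libraries, and the pooled Sox11 values (4.408 to 5.524) lie above all 14 libraries, 11 of them at 0. Pooled and library values are not on the same scale: for Dcx the pooled values (3.677 to 4.61) lie below all 14 libraries.

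Between mutants given TAK-418 and mutants given vehicle, 0 of the 10 genes passed the adjusted threshold, where 0.00597% of all genes did. At an unadjusted p under 0.05, 0 members were higher and 0 lower, against 2.62% and 1.89% of all genes. The count higher was 1 without replicate 1 of the mutants on vehicle or replicate 2 or 3 of the wild types on vehicle. It was also 1 with 10 times the pseudocount, with only the compared groups fitted and without the 2 libraries with Ttr over 1000. The median log2 difference was 0.059 over the members and 0.002 over all genes. Dcx (0.072 ± 0.11, SE), Igfbpl1 (0.045 ± 0.16, SE) and Neurod1 (0.014 ± 0.065, SE) had smaller fitted differences here than in wild types.

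Whether the drug acted differently in the 2 genotypes was tested as an interaction, the effect in mutants minus that in wild types. None of the 10 genes passed the adjusted threshold (smallest adjusted p = 0.975 in limma), and 0.00597% of all genes did. Unadjusted, 2 of 10 were lower, against 2.25% of all genes lower, and 0 were higher, against 2.17%. They were Igfbpl1 (-0.53 ± 0.21, SE, unadjusted p = 0.0295) and Dpysl3 (-0.33 ± 0.14, SE, unadjusted p = 0.034). The count of 2 fell to 0 without replicate 1 of the wild types on vehicle, without replicate 2 of the mutants on vehicle and without scaling. It fell to 1 without replicate 1, 2 or 5 of the treated wild types, replicate 2 or 3 of the treated mutants, replicate 3 of the mutants on vehicle or replicate 2 of the wild types on vehicle. It was also 1 with only the highest transcript of each gene, and rose to 4 without the 2 libraries with Ttr over 1000. With abundance multiplied by length the difference was -0.10 for Igfbpl1 and -1.30 for Dpysl3.

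The genotype comparison under vehicle sets the KMT2D allele alone against wild type. Adjusted calls were 0 among the 10 genes and 0% over all. Unadjusted, Igfbpl1 was higher in mutants (0.37 ± 0.16, SE, unadjusted p = 0.0378, adjusted p = 0.871 in limma) and Stmn1 lower (-0.28 ± 0.099, SE, unadjusted p = 0.0152, adjusted p = 0.783 in limma). Background shares were 2.61% higher and 2.88% lower. The count higher fell to 0 without replicate 1 or 2 of the wild types on vehicle, without replicate 2 or 3 of the mutants on vehicle, without scaling, with sex as covariate and with only the compared groups fitted, and the Igfbpl1 difference was 0.20 without replicate 2 and 0.57 without replicate 3 of the wild types on vehicle, and -0.057 with abundance multiplied by length. The count higher rose to 2 without replicate 1 or 3 of the treated wild types or replicate 3 of the wild types on vehicle. The count lower fell to 0 without wild-type vehicle replicate 2 and without mutant vehicle replicate 3. Without the 2 libraries with Ttr over 1000, 2 were higher and 2 lower. Stmn1 measured 208.4, 228.3 and 202.6 in vehicle mutants, all below the 239.1 to 281.2 of vehicle wild types, and 4.53% of all genes were lower without overlap. In the authors' deposited table Stmn1 was 227.6 in vehicle wild types and 183.7 in mutants on vehicle (log2 fold change -0.31, unadjusted p = 0.0074, q = 0.323), at a locus shared with a small noncoding gene.

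Under TAK-418, mutants against wild types gave 0 adjusted calls of 10, where 0.0119% of all genes were called. Unadjusted, 1 was lower (Dpysl3, -0.36 ± 0.093, SE, unadjusted p = 0.00206, adjusted p = 0.807 in limma) and 0 higher, with 2.54% and 2.42% of all genes as background. Treated mutants, at 17.9 to 19.8, lay below the 20.5 of the lowest treated wild type, and 2.4% of all genes were lower without overlap. All 3 treated mutants had the broken last exon, and abundance multiplied by length gave -1.31. The count lower was 2 without wild-type TAK-418 replicate 3 and with abundance multiplied by length. The members' median log2 difference was -0.10, against 0.003 for all genes.

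Treated mutants were also set against vehicle wild types. Here 0 of 10 passed the adjusted threshold, and 0.0239% of all genes did. Unadjusted, 3 were higher, namely Calb2 (0.27 ± 0.10, SE, unadjusted p = 0.0188), Igfbpl1 (0.42 ± 0.16, SE, unadjusted p = 0.0227) and Neurod1 (0.15 ± 0.065, SE, unadjusted p = 0.0371), and 0 lower, with 3.17% and 2.25% of all genes as background. Calb2 and Neurod1 were higher without overlap, where 5.54% of all genes were, and Stmn1 was lower without overlap, where 3.97% were. The smallest adjusted p was 0.82 in limma. The count lower was 1 without replicate 4 or 5 of the treated wild types or replicate 3 of the wild types on vehicle. It was also 1 with only the compared groups fitted and without the 2 libraries with Ttr over 1000. The count of 3 higher fell to 1 without replicate 1 of the treated mutants and with only the compared groups fitted, to 0 without scaling, and to 2 without replicate 2 or 3 of the treated mutants or replicate 1 or 2 of the wild types on vehicle. Without wild-type vehicle replicate 2, Calb2 was 0.15 and Igfbpl1 0.25, and with abundance multiplied by length Igfbpl1 was 0.025.

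**Figure D4:**
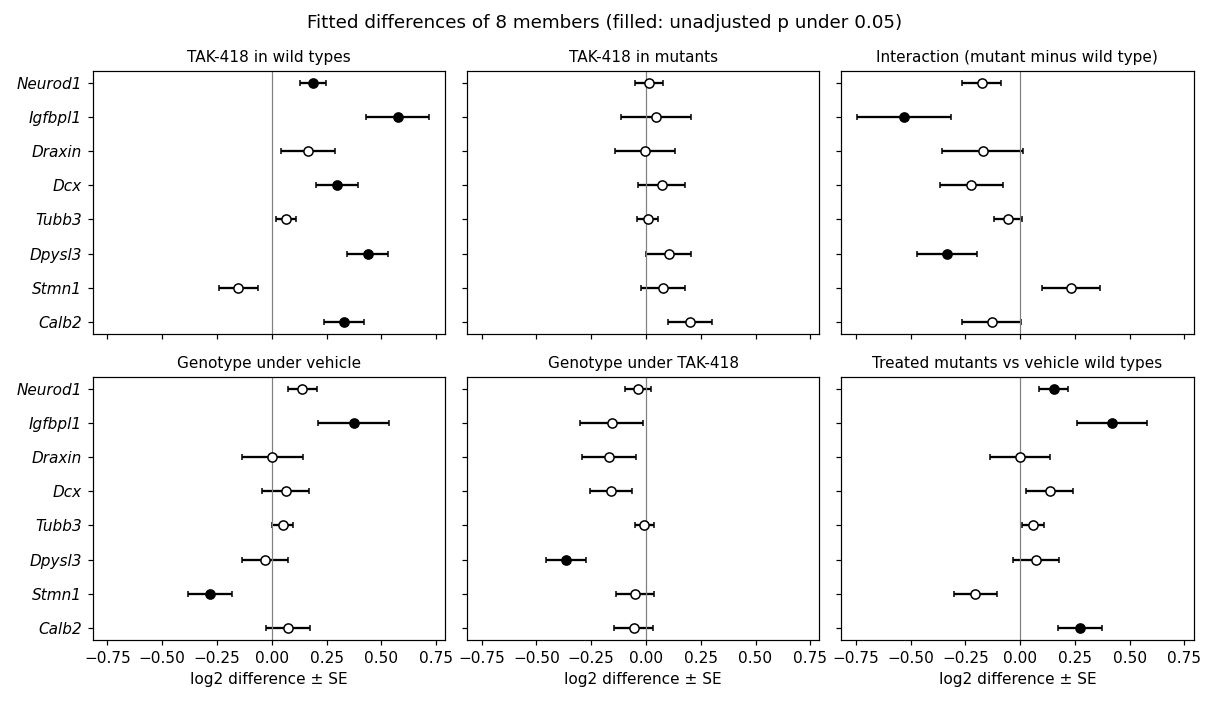
Fitted log2 differences with SE for the 8 genes valued in all libraries, in the 6 comparisons (log2 of value plus pseudocount, linear axis). Filled points passed an unadjusted p of 0.05: 5 for TAK-418 in wild types, 0 in mutants, 2 in the interaction and 2, 1 and 3 in the lower panels, and no point passed the adjusted threshold.

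The authors' deposited tables hold 4 group comparisons and list 9 of the 10 genes by symbol, and Tubb3 was not found in them under its symbol. Each group appears in 2 of them, so the tables share samples. None of the 9 had a q under 0.05, where 0.218% to 0.611% of tested loci did (0.218% for treated mutants over treated wild types, 0.611% for vehicle mutants over treated wild types, 0.324% for treated mutants over vehicle wild types and 0.224% for the vehicle groups). For vehicle mutants over treated wild types, 4 of 9 were lower at an unadjusted p under 0.05, against 1.4% of tested loci. In the authors' deposited table these were Dcx (4.58 in treated wild types and 3.69 in vehicle mutants, log2 fold change -0.31, p = 0.0009, q = 0.117), Sox11 (5.48 and 4.42, -0.31, p = 0.0015, q = 0.167), Calb2 (32.9 and 27.9, -0.24, p = 0.0193, q = 0.676) and Dpysl3 (18.1 and 15.7, -0.20, p = 0.0231, q = 0.695). That comparison differs in both genotype and treatment. For treated mutants over vehicle wild types the authors' deposited table lists 1 of 9, Calb2, as higher (27.1 and 32.6, log2 fold change 0.27, p = 0.0404, q = 0.98), against 1.98% of tested loci. For the vehicle groups 1 of 9, Stmn1, was lower, against 2.15% of tested loci. Neurod1, which was higher in treated wild types by the library values, lay between 18.2 and 18.7 in every group of the authors' deposited tables, at a locus joined with Cerkl. Dpysl3 lay at 15.8 in wild types and 15.67 in mutants on vehicle, and at 18.22 and 16.74 on drug, in the authors' deposited tables.

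Over the 8 fully valued genes, wild-type vehicle replicates 1 and 2 averaged -0.17 from each gene's own mean on the log2 scale, and each held the lowest value for 3 of the 8. Mutant vehicle replicate 1 averaged -0.13 and lay below the gene's own mean in all 8. The other vehicle libraries averaged -0.045 to -0.017. Wild-type TAK-418 replicate 1, the deepest library, averaged 0.19 above and held the highest value for 5 of the 8. The 5 treated wild types averaged 0.049 to 0.19 above, and the 3 treated mutants from -0.039 to 0.016. Without wild-type TAK-418 replicate 1 the drug in wild types still gave 5 higher of 10 unadjusted, and the count was also 5 without the 2 libraries with Ttr over 1000.

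The genes most alike in profile to the mean of the 10 over the 14 libraries were Nabp2 (r = 0.849, rho = 0.815), Snap91 (r = 0.848, rho = 0.56), Tbc1d25 (r = 0.84, rho = 0.802), Zfp964 (r = 0.838, rho = 0.793) and Ptprj (r = 0.837, rho = 0.807), out of 13329 genes valued in all libraries. That mean is moved by the 2 libraries in which Sox4 was not assembled, and without them r fell to between 0.641 and 0.796. A mean over the 8 fully valued genes, chosen after the values were seen, was most like Fam131b (r = 0.91), Gpc1 (r = 0.909), Phrf1 (r = 0.908), Nectin1 (r = 0.893) and Cdk16 (r = 0.886). The libraries share their scaling and depth across genes, and these genes were taken as the highest of all correlations.

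A wider list of 24 genes of immature neurons (cytoskeletal, adhesion and transcription factor genes such as Marcksl1, Stmn2, Dpysl5, Dclk1 and Neurod2) was set beside the 10. For the drug in wild types 2 of 24 were higher unadjusted (Dpysl5 and Neurod2) and 0 were lower, beside 5.21% and 3.29% of all genes. The median was -0.0 on the log2 scale. In mutants 1 was higher (Tuba1a) and 1 lower (Ncam1), beside 2.62% and 1.89% of all genes. None passed the adjusted threshold in any comparison. Its most abundant members were Tuba1a, Basp1 and Tubb2b. Tuba1a, an alpha-tubulin, averaged 844 ± 72.6 and 858 ± 81.4 in wild types on vehicle and on drug, and 789 ± 55.0 and 1090 ± 133 in mutants on vehicle and on drug (SD). All treated mutants exceeded all mutants on vehicle in Tuba1a (0.46 ± 0.11, SE, unadjusted p = 0.00128, adjusted p = 0.537 in limma). In that comparison 4.61% of all genes were higher without overlap. Basp1, a growth cone protein, averaged 386 ± 22.4 and 411 ± 9.17 in wild types and 401 ± 18.8 and 395 ± 14.7 in mutants (SD), and Tubb2b, a beta-tubulin, 287 ± 142 and 280 ± 125 in wild types and 250 ± 133 and 364 ± 45.5 in mutants (SD).

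Of 12 genes of stem, progenitor and dividing cells, 10 were valued, and Neurod4 and Insm1 were at 0 throughout. For the drug in wild types 1 was higher (Neurog2) and 1 lower (Top2a), beside 5.21% and 3.29% of all genes, with a median of 0.12. In mutants 1 was higher (Neurog2) and 1 lower (Eomes, the marker of committed progenitors), beside 2.62% and 1.89% of all genes. For genotype under vehicle 1 was higher, Eomes (0.49 ± 0.21, SE, unadjusted p = 0.0343, adjusted p = 0.871 in limma). None was lower, and 2.61% and 2.88% of all genes were higher and lower. Between treated mutants and vehicle wild types the Eomes difference was 0.024 ± 0.21 (SE). Among the highest members were the stem cell gene Hopx (76.8 ± 8.17 and 83.3 ± 3.41, SD, in wild types on vehicle and on drug, 81.6 ± 7.44 and 80.4 ± 7.25, SD, in mutants) and Nes (2.67 ± 0.269 and 2.94 ± 1.13, SD, in wild types).

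Markers of mature granule cells were counted the same way. Of 10, 5 were higher in treated wild types at an unadjusted p under 0.05 (Prox1, Lct, Tdo2, C1ql2 and Dsp) and 0 were lower, beside 5.21% and 3.29% of all genes, and the median was 0.19. In mutants 2 were higher (Tdo2 and C1ql2), beside 2.62% of all genes. Their summed abundance was 254.6 to 288.7 in wild types on vehicle, 265 to 273 in mutants on vehicle, 284 to 302 in treated wild types and 288 to 295 in treated mutants, and none of the 10 markers was at 0 in a group. C1ql2, a synaptic protein of mossy fibres, measured 52.1 ± 2.51 in vehicle wild types and 63.0 ± 3.89 in treated wild types (SD), Prox1, the granule cell identity factor, 30.3 ± 0.281 and 36.9 ± 4.15 (SD), and Calb1, calbindin, 98.3 ± 16.8 and 94.1 ± 4.39 (SD). The part of dentate content in the higher values of the newborn genes was not tested.

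Markers of other cells that the tissue holds, some of which carry these genes, are given as sums in wild types on vehicle and then on drug, with counts at an unadjusted p under 0.05 for the drug in wild types. Over all genes, 5.21% were higher and 3.29% lower in that comparison. Interneuron markers (8, with Sst, Gad1 and Npy the highest) summed to 623 to 629 and 507 to 695, with 1 higher (Npy) and 0 lower. Olfactory and subventricular neuroblast markers (6, led by Dlx1, Dlx5 and Dlx6) summed to 14.1 to 18.2 and 13.9 to 19.4, with 0 higher and 0 lower, and Sp8 was at 0 throughout the wild types on vehicle and the treated mutants. Markers of oligodendrocyte precursors and new oligodendrocytes (5, led by Bcas1, Olig2 and Pdgfra) summed to 121 to 150 and 117 to 134, with 0 higher and 0 lower. Thalamus and habenula markers (6, led by Prkcd, Plekhg1 and Rora) summed to 30.3 to 33.5 and 30.9 to 34.5, with 0 higher and 0 lower for the drug in wild types. For genotype under vehicle 2 were lower (Tcf7l2 and Slc17a6), beside 2.88% of all genes. Choroid plexus markers (7, led by Ttr, Kl and Folr1) summed to 20.6 to 6481 and 15.9 to 43.8, with 0 higher and 0 lower, and in mutants to 44.3 to 5042 and 21.3 to 609. Endothelial and microglial markers (6, led by C1qa, P2ry12 and Cx3cr1) summed to 91.7 to 100.2 and 87.9 to 93.0, with 1 higher (Flt1) and 1 lower (P2ry12). CA field markers (6, led by Fibcd1, Wfs1 and Zbtb20) summed to 168 to 217 and 140 to 226, with 1 higher (Fibcd1) and 1 lower (Wfs1). None of these genes passed the adjusted threshold in any comparison.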

How the data were processed

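RNA was sequenced from the hippocampus of 14 mice, 1 library each, grouped by the genotype and treatment in the labels. Per the submitters' processing notes, FastQC and TopHat2 2.1.0 were used with mm10. The roles of 2 named library kits, and strand use, are not given in the sources used here. Per the file headers, CLASS 2.1.7 assembled each library's transcripts; each deposited transcript carries an abundance score, FPKM-like from its values. The authors also deposited 4 tables of pooled FPKM-type group values with log2 fold changes, p-values and q-values. The group order of each table was checked against the libraries across genes.

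Transcripts were assigned to GENCODE M21 genes by shared introns, else by at least 50% of their exon bases. This rule was widened after the member values were seen. Values were summed per gene and scaled by the median of ratios over genes valued in all 14 libraries. The 16764 genes valued in at least 3 libraries were fitted as log2(value + 0.849), the pseudocount being the 10th percentile, with limma 3.58.1 (trend) in R 4.3.3, 4 group means and Benjamini-Hochberg adjustment at 0.05, two-sided; fold changes of low genes are understated. The fit was tested on simulated data. Python 3.11.15, numpy 2.4.6, pandas 2.3.3 and matplotlib 3.10.9 were used besides. Members, lists and motifs were chosen with earlier results of these data known. The naming rule took all members, from each list the genes past the adjusted threshold and the 3 with the highest mean, and the 5 genes most like the members' mean. One of the genes this rule names is not reported here. List genes named for an unadjusted p fall outside that rule and were chosen after their values were seen, as were the Dcx exon and the transcript lengths of Dpysl3 and Igfbpl1. Alternatives are given in the closing section. The limma p-values set a group difference against the spread between these mice, shared over the 4 groups. The deposited p-values are the authors' own.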

Additional observations from a re-analysis of the deposited data

How the results depend on the processing

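No member passed the adjusted threshold in any of the 6 comparisons under any of the 26 alternatives (25 for the interaction), and the adjusted p of the 8 with a value in all libraries stayed at or above 0.0972, the value for Dpysl3 in treated wild types without wild-type TAK-418 replicate 3. For the drug in wild types the members higher at an unadjusted p numbered 5 to 7, those lower 0 to 1 (1 without wild-type TAK-418 replicate 5), and their median stayed between 0.14 and 0.31. The interaction count ran from 0 to 4 lower, and the members higher between treated mutants and wild types on vehicle from 0 to 4. Genes called over the whole table ranged from 0 to 12 for genotype under vehicle (0 as reported), 0 to 6 for the drug in wild types (0), 0 to 17 for the drug in mutants (1), 0 to 7 for genotype under TAK-418 (2), 0 to 12 between treated mutants and wild types on vehicle (4) and 0 to 8 for the interaction (1). Signs of uncalled differences turned as follows, on the log2 scale, with the cause not tested. For genotype under vehicle, Draxin was -0.00069 with 10 times the pseudocount, -0.049 without scaling, -0.14 with the highest transcript, -0.50 with abundance times length and -0.056 with sex, inferred from the data, as covariate; Dcx was -0.015 without scaling and -0.024 with abundance times length; Calb2 was -0.015 and Tubb3 -0.039 without scaling; Igfbpl1 was -0.057 with abundance times length; Dpysl3 was 0.079 without the libraries with Ttr over 1000. For the drug in mutants, Draxin was 0.0059 without scaling, 0.14 with the highest transcript and 0.52 with abundance times length. Neurod1 was -0.013 with abundance times length and -0.042 without the Ttr libraries, and Tubb3 was -0.018 and -0.0096. For genotype under TAK-418, Dcx was 0.091 with the highest transcript, and Neurod1 was 0.016 and Tubb3 0.0054 with abundance times length. For treated mutants against vehicle wild types, Draxin was 0.0056 with 0.1 times the pseudocount, 0.017 with multi-exon transcripts only, 0.016 with abundance times length and 0.069 without the Ttr libraries, and Tubb3 was -0.010 without scaling. Leaving out 1 library at a time gave ranges that crossed 0 for genotype under vehicle in Draxin (-0.12 to 0.073), Dpysl3 (-0.12 to 0.049) and Calb2 (-0.055 to 0.15), for the drug in mutants in Neurod1 (-0.043 to 0.049), Draxin (-0.064 to 0.041), Tubb3 (-0.016 to 0.040) and Igfbpl1 (-0.0052 to 0.12), for genotype under TAK-418 in Tubb3 (-0.031 to 0.025), and for treated mutants against vehicle wild types in Draxin (-0.13 to 0.068). With only loci that hold the symbol alone, 0 members of the authors' deposited vehicle comparison are at an unadjusted p under 0.05, since Stmn1 drops out. Matching transcripts by intron only, an alternative chosen after seeing the data, left the drug in wild types at 5 higher, with a members' median of 0.17, and gave 2 higher in place of 3 between treated mutants and wild types on vehicle. No paired analysis was possible because the labels give no replicate numbers shared between groups. Draxin in 8 libraries was in 2 pieces and Sox11 in 11 was not assembled, and the part of depth in this was not tested.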
